A study of Mus musculus with 15 samples.

Results

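The group described here is 9 genes chosen by symbol, Drd1, Drd2, Adora2a, Ppp1r1b, Rgs9, Penk, Tac1, Pde10a and Rarb, all of them genes of the projection neurons of the striatum. They are 9 of the 37991 genes of a count table made from mouse cortex, and each symbol matched 1 Ensembl gene. The 5XFAD mouse, a model of Alzheimer's disease amyloid deposition whose human transgenes carry 5 familial mutations and are driven by the neuronal Thy1 promoter, was set against non-transgenic controls, called WT here. All mice had the C57BL/6J strain label and all tissue the cortex label, and no group had another treatment. The 15 libraries form 6 groups: WT (n = 2) and 5XFAD (n = 2) at 3 months of age, WT (n = 3) and 5XFAD (n = 3) at 6 months, and WT (n = 2) and 5XFAD (n = 3) at 12 months. The labels do not say whether each library came from its own animal, so p-values measure the spread between these libraries, which may be partly technical. The question put to the 9 genes was how far they moved together from library to library, and how that movement fell across genotype and age.

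Most neurons of the striatum are medium spiny neurons, which send inhibitory output along a direct and an indirect pathway. Direct pathway cells carry the dopamine D1 receptor (Drd1) and make substance P from Tac1, whereas indirect pathway cells carry the dopamine D2 receptor (Drd2) and a striatal adenosine receptor (Adora2a) and make enkephalin from Penk. Both kinds share the dopamine- and cAMP-regulated phosphatase inhibitor DARPP-32 (Ppp1r1b), the G protein shut-off factor Rgs9 and the cyclic nucleotide phosphodiesterase Pde10a, and retinoic acid receptor beta (Rarb) is expressed in many of them. The striatum lies directly beneath the cortex and is separated from it by white matter, and several of these genes are also expressed at a lower level in the cortex itself, for example Penk in some inhibitory interneurons.

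To show what the start of genes that moved together looks like, the 250 bases before the annotated transcript start are given for 3 of them. The RefSeq promoter table, on build GRCm38.p6, held 8 starts of 6 members (Drd1, Drd2, Rgs9, Tac1, Pde10a and Rarb). Adora2a, Ppp1r1b and Penk are named only. Capitals mark 1 of 3 motifs, searched on both strands: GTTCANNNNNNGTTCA, the direct repeat bound by retinoic acid receptors; TGCGTCA, a relative of the cAMP response element; and GGGCGG, the core bound by Sp1.
Rarb, chr14:16575477-16575726, minus strand: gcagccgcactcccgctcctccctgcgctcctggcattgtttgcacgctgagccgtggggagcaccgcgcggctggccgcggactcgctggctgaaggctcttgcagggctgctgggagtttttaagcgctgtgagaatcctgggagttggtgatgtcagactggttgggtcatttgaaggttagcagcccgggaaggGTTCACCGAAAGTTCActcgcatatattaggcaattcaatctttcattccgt
Tac1, chr6:7554811-7555060, plus strand: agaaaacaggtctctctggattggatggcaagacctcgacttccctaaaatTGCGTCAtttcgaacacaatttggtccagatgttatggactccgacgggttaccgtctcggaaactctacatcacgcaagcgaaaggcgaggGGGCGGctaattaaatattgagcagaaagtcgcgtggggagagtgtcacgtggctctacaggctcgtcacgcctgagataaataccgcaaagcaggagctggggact
Drd2, chr9:49340153-49340402, plus strand: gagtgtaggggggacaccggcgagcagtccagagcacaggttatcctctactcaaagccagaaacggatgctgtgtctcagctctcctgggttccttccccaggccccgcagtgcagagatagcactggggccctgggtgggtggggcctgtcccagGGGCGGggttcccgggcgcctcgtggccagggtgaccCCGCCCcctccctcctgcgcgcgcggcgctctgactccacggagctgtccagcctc

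The Rarb window held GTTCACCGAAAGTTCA, whose first base lay 52 bases before the start. The same repeat was in 22 of 32851 windows of that length, or 0.067%, and in no other member with an entry. Tac1 held TGCGTCA 199 bases before its start, as did 1.75% of all windows, and the full element TGACGTCA was in none of the members' windows and in 1.55% of all. GGGCGG was in at least 1 window of Drd1, Drd2, Pde10a, Rgs9 and Tac1 and in 32.7% of all windows. None of these motifs was shared by all 6 genes with an entry. A match describes the letters in the window, not a bound site.

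Library totals ran from 105154280 to 226732480 counts, and the lowest member count in any library was 91 (Drd2, WT 12 months replicate 2), so the counting error of the levels below was small beside the differences described. All 9 members passed the low-count filter, as did 21555 of the 37991 genes. Slc17a7, a glutamate transporter gene of cortical excitatory neurons, lay between 1020 and 1627 CPM in every library (TMM-scaled counts per 1000000, the scale of all levels given here). Its level does not show whether other tissue was present beside cortex. By Xist, the RNA that coats the inactive X chromosome, 10 libraries came from females, and each replicate 1 (5 libraries) came from a male. TMM is edgeR's correction of totals for library composition. The total count and the TMM factor had little relation to the members: over 15 libraries Pearson's r with the mean log2 level of the 9 genes was 0.09 and 0.13.

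Every one of the 9 genes was highest in the same library, WT 3 months replicate 1, and second highest in the same other library, 5XFAD 12 months replicate 3. For 8 of the 9, the next 2 were 5XFAD 6 months replicate 2 and WT 12 months replicate 3, in either order. Those 4 libraries were the 4 highest, as a set, for 29 of the 15041 tested genes that averaged 1 CPM or more, or 0.193%, and the first 2 were the 2 highest for 1.2%. They came from 4 different groups, 2 of each genotype, and 1 of the 4 was male. In bulk tissue, more cells of a type and more RNA per cell cannot be told apart.

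**Figure D1:**
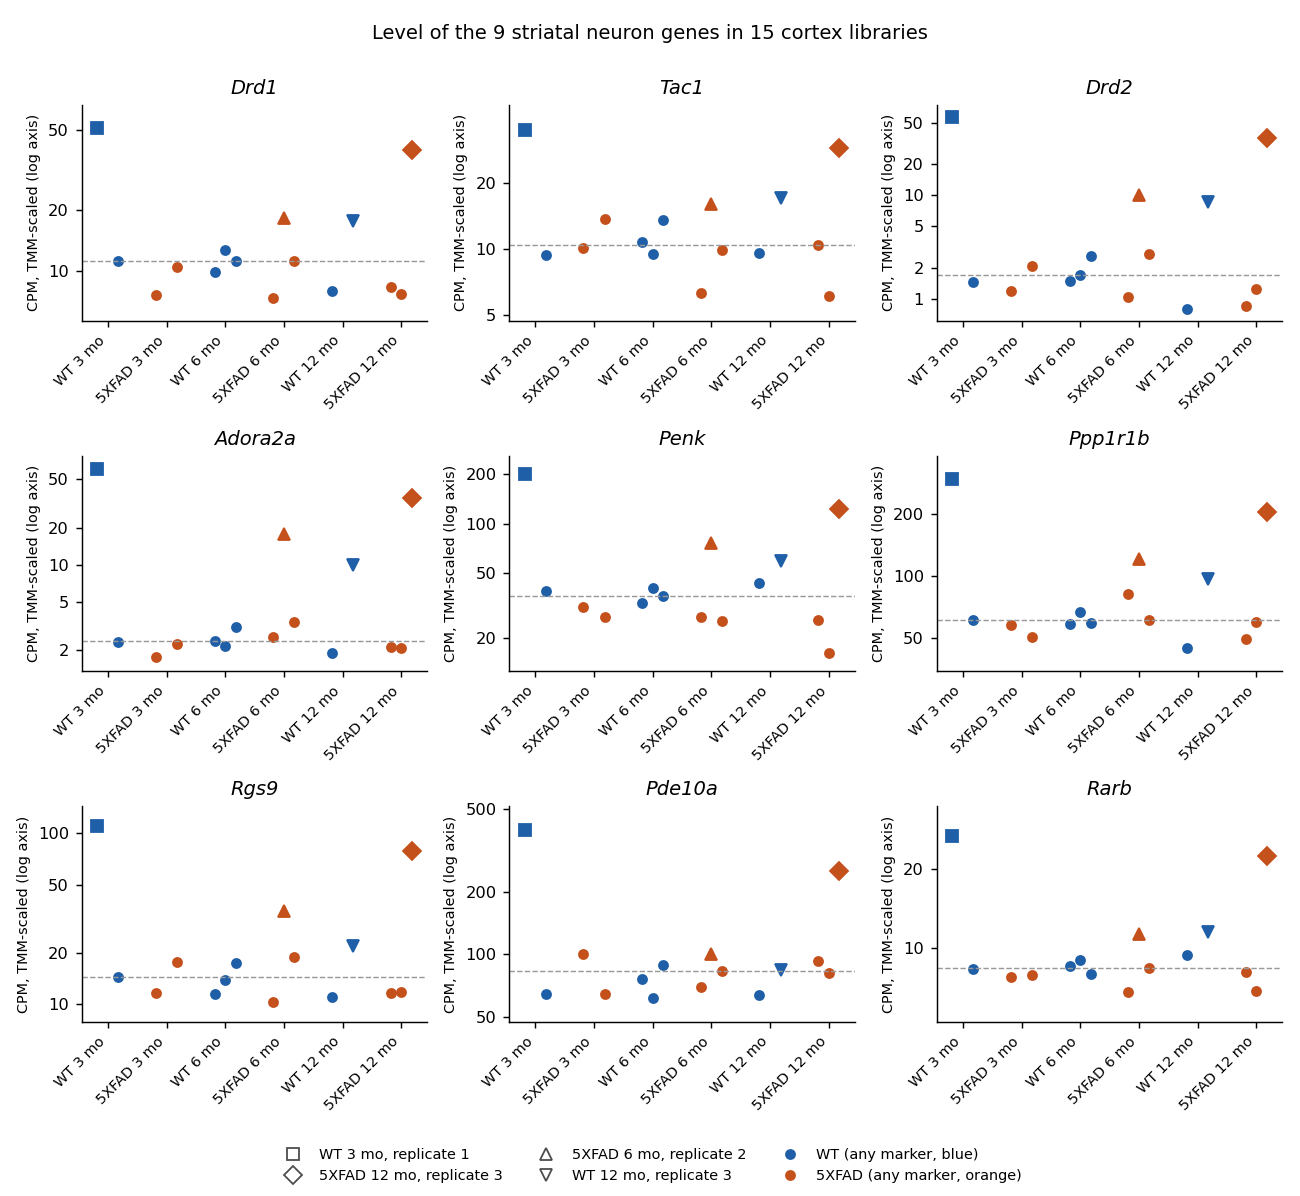
Level of each of the 9 genes in every library, in CPM on a log axis, by genotype and age; blue points are WT, orange points 5XFAD, the dashed line is the median of 15 libraries, and the square, diamond and 2 triangles mark the 4 libraries named in the legend. The square (WT 3 months replicate 1) is the highest point and the diamond (5XFAD 12 months replicate 3) the second highest in all 9 panels, and the triangles stand above the remaining libraries in every panel but that of Pde10a.

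Of the indirect pathway genes, Drd2 had the widest range. It stood at 56.7 and 1.47 CPM in the 2 WT libraries and at 1.19 and 2.07 CPM in the 2 5XFAD libraries of 3 months, at 1.49, 1.70 and 2.61 CPM (WT) and 1.06, 9.96 and 2.74 CPM (5XFAD) at 6 months, and at 0.806 and 8.53 CPM (WT) and 0.868, 1.25 and 35.4 CPM (5XFAD) at 12 months. The highest library was 33.3 times the median of 1.70 CPM and 70.4 times the lowest, and the genotypes overlapped at every age. Adora2a, whose product opposes D2 receptor signalling in the same cells, reached 60.3, 35.5, 17.8 and 9.93 CPM in the 4 high libraries, taken in the order WT 3 months replicate 1, 5XFAD 12 months replicate 3, 5XFAD 6 months replicate 2 and WT 12 months replicate 3. In the other 11 it lay between 1.75 and 3.40 CPM, so the 4 were clear of the rest. Penk, the enkephalin precursor, was at 199.6, 123, 76.6 and 58.8 CPM in the same 4 libraries and between 16.4 and 43.3 CPM in the others. Its highest level was thus 5.52 times its median, against 25.1 times for Adora2a.

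The direct pathway genes showed the same 4 libraries on a higher floor. Drd1 was at 51.5, 39.9, 18.4 and 17.7 CPM in them and between 7.31 and 12.7 CPM in the other 11. Tac1, which encodes the substance P precursor, was at 34.7, 28.9, 16.1 and 17.0 CPM, against 6.15 to 13.7 CPM elsewhere. Drd1 peaked at 4.60 times its median and Tac1 at 3.32 times, both well under Drd2 and Adora2a.

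Among the genes both cell kinds share, Ppp1r1b was at 295.5, 203, 121 and 96.5 CPM in the 4 libraries and at 44.6 to 81.5 CPM in the rest. Rgs9 was at 111, 79.2, 35.1 and 21.8 CPM and at 10.2 to 18.9 CPM in the rest. Pde10a was the exception. It reached 395 and 250 CPM in the first 2 libraries, but 5XFAD 6 months replicate 2 (100.7 CPM) was level with 5XFAD 3 months replicate 1 (100.8 CPM), and WT 12 months replicate 3 (84.0 CPM) was close to the median of 83.3 CPM. Rarb, the nuclear receptor of the group, had the smallest rise, with 26.9, 22.6, 11.2 and 11.5 CPM in the 4 libraries and 6.74 to 9.39 CPM in the rest, a peak at 3.21 times its median.

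Levels of different genes can be set side by side only per length of transcript, taken here from the merged exons of each gene in GENCODE M21. In median CPM per kilobase, Penk (22.1) and Ppp1r1b (20.8) stood at the top, followed by Pde10a (6.49), Drd1 (3.09), Tac1 (3.07), Rgs9 (2.25), Rarb (1.59), Adora2a (0.786) and Drd2 (0.668). In the highest library the order was Penk (122), Ppp1r1b (101), Pde10a (30.8), Drd2 (22.3), Adora2a (19.7), Rgs9 (17.4), Drd1 (14.2), Tac1 (10.2) and Rarb (5.12). Drd2 and Adora2a therefore moved from the last places to the middle, and Drd1 and Tac1 fell below them.

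Group means followed the high libraries. WT at 3 months had the highest mean and 5XFAD at 12 months the second highest for all 9 genes. For Drd2 the means were 29.1 ± 39.1 CPM (SD, n = 2) in WT at 3 months, 12.5 ± 19.8 (n = 3) in 5XFAD at 12 months, 4.67 ± 5.46 (n = 2) in WT at 12 months, 4.59 ± 4.73 (n = 3) in 5XFAD at 6 months, 1.94 ± 0.593 (n = 3) in WT at 6 months and 1.63 ± 0.620 (n = 2) in 5XFAD at 3 months. The SD exceeded the mean in 4 of those 6 groups, and no neighbours in that order were further apart than the larger of their SDs. Over all 9 genes, 5 of 45 neighbouring pairs were, and each was the pair of WT at 6 months over 5XFAD at 3 months, the lowest mean of Drd1, Adora2a, Ppp1r1b, Penk and Rarb. Penk, for instance, was at 36.5 ± 3.95 CPM (n = 3) in WT at 6 months and 29.0 ± 2.73 CPM (n = 2) in 5XFAD at 3 months.

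The 9 genes moved together closely over all libraries. Among their 36 pairs, Pearson's r of log2(CPM + 0.5) over 15 libraries had a median of 0.92 and ran from 0.81 (Ppp1r1b and Tac1) to 0.98 (Drd2 and Adora2a). These correlations are descriptions of libraries that share depth, scaling and tissue block, and the median Spearman's rho was lower, at 0.66. Without WT 3 months replicate 1 and 5XFAD 12 months replicate 3, the median r over 13 libraries was 0.73, with Penk and Pde10a the loosest pair at 0.11. Without all 4 high libraries it was 0.13 over 11 libraries, with 11 of the 36 pairs below 0, from -0.53 (Ppp1r1b and Tac1) to 0.91 (Drd2 and Rgs9). When each group's mean was first subtracted the median over 15 libraries was 0.94. That value still leaned on the 4 high libraries, each of which came from a different group. In groups of 2 libraries the deviations also mirror each other, which raises r. It therefore does not show common movement within groups apart from those 4 libraries.

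Members differed in how long they kept following the others. Each was compared with the mean log2 level of the other 8 and ranked among the 15041 genes. Over 15 libraries all 9 were among the 100 most alike, from Drd2 (r 0.985, rank 1) to Pde10a (r 0.89, rank 34), while 115 genes, or 0.765%, had an r of at least 0.7. Over 13 libraries 8 were, since Pde10a dropped to an r of 0.35 and rank 1648. Over 11 libraries 3 were: Drd1 (r 0.814, rank 7), Drd2 (r 0.777, rank 25) and Rgs9 (r 0.774, rank 27). Adora2a (0.574) and Tac1 (0.572) were intermediate there, and Rarb (0.335), Penk (0.179), Ppp1r1b (-0.105) and Pde10a (-0.164) hardly followed the rest. By Pearson's r the dopamine receptor genes and Rgs9 thus kept following the mean of the other members, of which they are themselves a part, where striatal levels were lowest. As pairs, Drd2 and Rgs9 had 0.91 there, Drd1 and Drd2 0.77 and Drd1 and Rgs9 0.76. Drd2 had 0.75 with Adora2a and 0.49 with Tac1, but 0.19 with Ppp1r1b, 0.07 with Rarb, 0.04 with Pde10a and 0.01 with Penk. The abundant genes Ppp1r1b, Penk and Pde10a did not, though as a pair Penk and Rarb had an r of 0.75 over those 11 libraries. By Spearman's rho over the same 11, Rgs9 fell to rank 198 (0.645) and 2 members were among the 100 most alike.

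**Figure D2:**
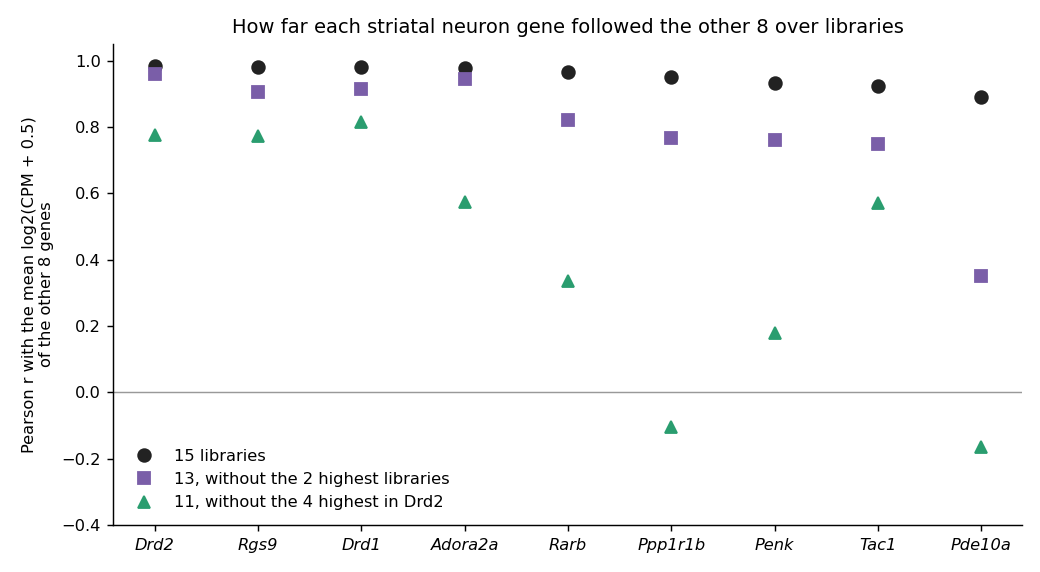
Pearson's r over libraries between each gene and the mean log2(CPM + 0.5) of the other 8, for 15 libraries (circles), 13 (squares) and 11 (triangles). All circles lie at 0.89 or above, whereas the triangles run from 0.814 for Drd1 to -0.164 for Pde10a.

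Genes outside the group that followed it most closely included many other striatal genes. The closest was Cd4 (r 0.982 over 15 libraries), a T cell co-receptor gene, at 17.8 and 12.6 CPM in the 2 highest libraries and a median of 1.75 CPM. Next came Sh3rf2 (0.977), Lrrc10b (0.973), Syndig1l (0.970) and Gpr6 (0.968), an orphan receptor gene of indirect pathway neurons, then Slc35d3 (0.957), Rasgrp2 (0.956), the phosphodiesterase gene Pde1b (0.954) and 1700003D09Rik (0.942). Of the 20 closest, 9 were on a list of 28 other striatal projection neuron genes, 27 of which were found in the table. Of the 20, 12 kept an r of at least 0.7 over 13 libraries and 1, Sh3rf2 (0.704), over 11. The average of 1 CPM was taken over all 15 libraries. Sh3rf2, Gpr6 and Slc35d3, with medians of 0.495, 0.902 and 0.789 CPM, reached it through the high libraries, so their likeness is partly built in. In the 11 libraries Sh3rf2 lay between 0.195 and 0.611 CPM, near the 0.5 added before the log. At the other end, Spata32 (-0.839), Greb1l (-0.824) and Brd9 (-0.806) moved furthest against the members.

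The list of other striatal genes moved with the members but not evenly. Over 15 libraries its 22 genes of at least 1 CPM, Sh3rf2, Gpr6 and Slc35d3 among them, had a median r of 0.84. The median for all genes was 0.01, and 16 of the 22 reached 0.7. Its transcription factor genes spread widely, with Bcl11b at 0.75, Ebf1 at 0.73, Foxp2 at 0.66, Foxp1 at 0.56 and the homeobox gene Meis2, at a median of 128.9 CPM in these cortex libraries, at 0.33. The opioid precursor Pdyn had 0.54 and the sodium channel subunit Scn4b 0.59. In 5XFAD 6 months replicate 2, Scn4b was at 112.3 CPM against a median of 157.7 CPM and Rxrg, the retinoid X receptor partner of Rarb, was at 3.91 CPM against a median of 4.75 CPM, while in WT 3 months replicate 1 they were at 490.2 and 49.9 CPM. Over the 11 libraries without the 4, however, Scn4b ran from 50.8 to 273.7 CPM and Rxrg from 1.77 to 9.56 CPM. Whether the 4 libraries held the striatal genes in 1 fixed proportion therefore cannot be read from these values.

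Of the members' signalling partners, a list of 31 genes for dopamine, cAMP, peptide and retinoid signalling of which 30 were found, a minority followed them. The median r over 15 libraries of its 25 genes of at least 1 CPM was 0.15, and 6 reached 0.7, as did 0.765% of all genes. The mean log2 level of the list had an r of 0.89 with that of the members over 15 libraries and 0.47 over 13. These were Pde1b (0.95), the substance P receptor gene Tacr1 (0.93), the G protein subunit gene Gng7 (0.92), the adenylyl cyclase gene Adcy5 (0.90), Rxrg (0.81) and the phosphatase gene Ppp1ca (0.70), whose product DARPP-32 inhibits, and Pde1b, Gng7, Adcy5 and Rxrg were also on the list of other striatal genes. Drd5, the other D1-like receptor gene, had 0.04, the adenosine A1 receptor gene Adora1 0.14, and the protein kinase A genes Prkaca and Prkar1a -0.33 and -0.42. Of the receptor genes for the enkephalins, Oprd1 had -0.26, and Oprm1, at 0.350 CPM or less in every library, was too low for an r to be taken.

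Drd1 was lower relative to Drd2 in the high libraries than in the rest. The ratio of Drd1 to Drd2 counts was 0.908 in WT 3 months replicate 1, 1.13 in 5XFAD 12 months replicate 3, 1.84 in 5XFAD 6 months replicate 2 and 2.08 in WT 12 months replicate 3, and from 4.09 to 9.77 in the other 11. The log2 ratio of Drd1 and Tac1 together to Drd2, Adora2a and Penk together was -1.88, -1.50, -1.60 and -1.15 in the same 4 libraries, and -1.39 to -0.38 in the others. It was lowest in the 3 libraries with the highest mean level of the members, and WT 12 months replicate 3 lay within the range of the others. The ratio of Tac1 to Penk did not set the 4 apart, at 0.174, 0.235, 0.21 and 0.29 in them and 0.223 to 0.508 elsewhere. Counted as excess over the median, Drd1 gained 0.733 to 0.956 CPM per CPM of Drd2 in the 4 libraries. The ratio of Drd2 to Adora2a varied less, from 0.408 to 0.996 over all 15.

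A straight line of each member on Drd2, in CPM over 15 libraries, described how much of it varied with Drd2. Adora2a rose by 1.03 CPM for each CPM of Drd2, with an intercept of 1.16 CPM at no Drd2, and r was 0.994. Pde10a rose by 5.59, Ppp1r1b by 4.29, Penk by 2.97, Rgs9 by 1.82, Drd1 by 0.797, Tac1 by 0.480 and Rarb by 0.364 CPM per CPM of Drd2. The intercept was 48.2% of the median level for Adora2a, 76.3% for Rgs9, 77.1% for Pde10a, 77.8% for Penk, 77.9% for Drd1, 89.5% for Ppp1r1b, 90.8% for Rarb and 92.5% for Tac1. The lines leaned on the 2 highest libraries. Over the 13 libraries without WT 3 months replicate 1 and 5XFAD 12 months replicate 3, the slope was steeper for 7 of the 8 genes, at 0.887 for Tac1, 4.61 for Penk, 1.5 for Adora2a, 6.35 for Ppp1r1b, 1.14 for Drd1, 2.11 for Rgs9 and 0.411 for Rarb, and lower for Pde10a, at 2.06. The r of Pde10a with Drd2 fell from 0.985 to 0.437. Over those 13 libraries the intercept was 1.09% of the median level for Adora2a (0.0261 CPM) and between 66.9% (Penk) and 88.6% (Rarb) for the other 7 genes, so a large part of their level remained where either line puts Drd2 at 0.

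**Figure D3:**
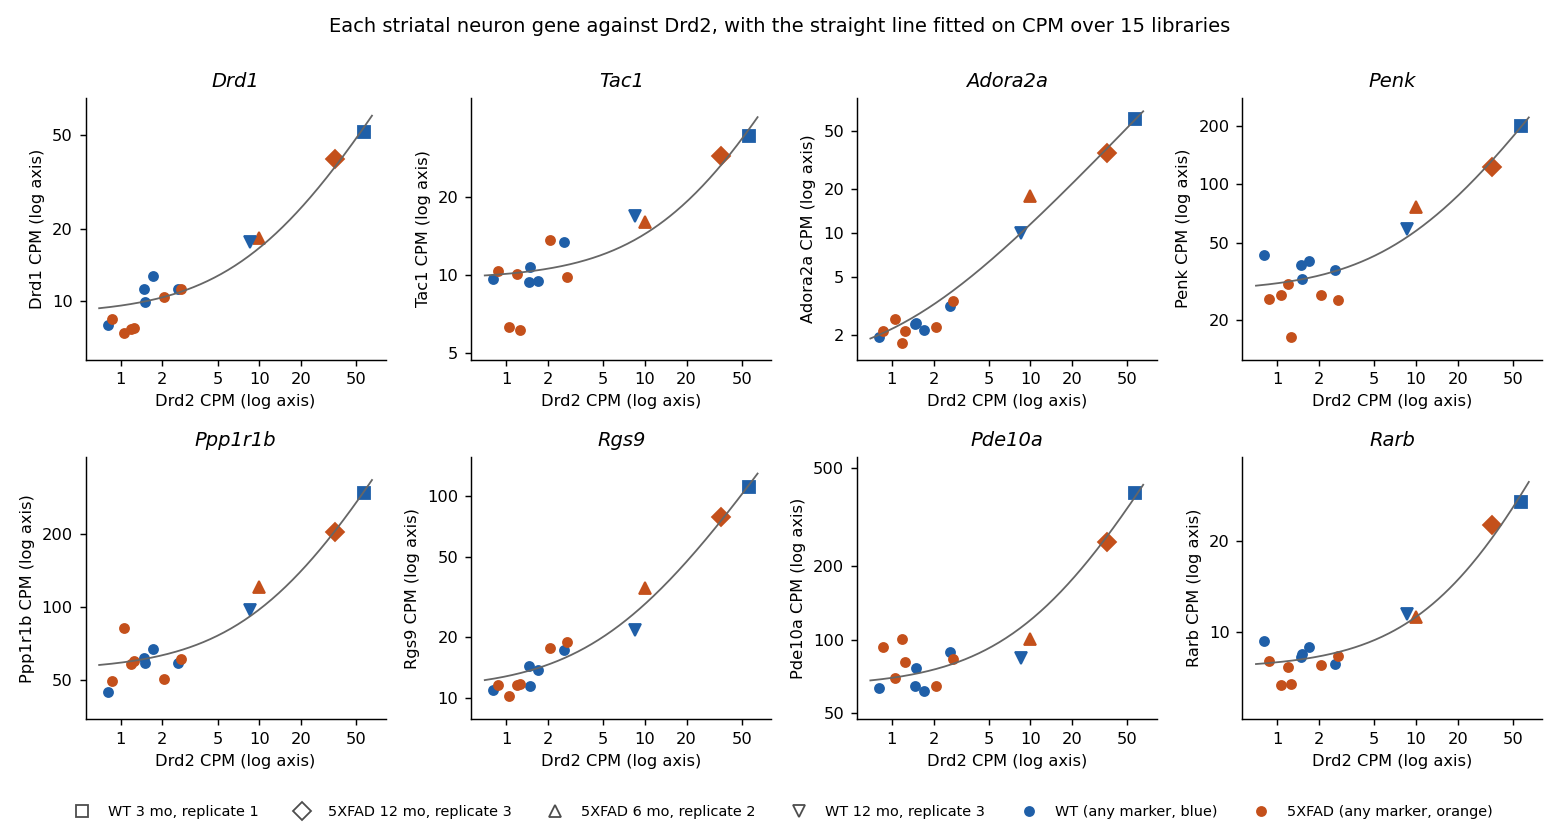
Each of the other 8 genes against Drd2 in the 15 libraries, both in CPM on log axes, with blue for WT and orange for 5XFAD; the grey curve is the straight line fitted on the CPM scale, which bends on log axes where its intercept is not 0. The flat left end of each curve approaches the intercept, which is 92.5% of the median for Tac1 and 48.2% for Adora2a in this line over 15 libraries.

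The relative size of the rise was alike across members in 1 of the lower libraries and uneven in the other 2. Taking each gene's excess over its median, 5XFAD 12 months replicate 3 held between 0.532 (Penk) and 0.767 (Rarb) of the excess in WT 3 months replicate 1, with a median of 0.612. For 5XFAD 6 months replicate 2 the share ran from 0.0557 (Pde10a) to 0.265 (Adora2a), median 0.214, and for WT 12 months replicate 3 from 0.00209 (Pde10a) to 0.272 (Tac1), median 0.138. Pde10a was therefore the member whose excess was nearly missing from the 2 libraries with the smaller rise.

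Other tissues moved with the members to different degrees. Of the cholinergic neuron list of 8 genes, 6 were found, and their mean log2(CPM + 0.5) was 1.54, 1.45 and 0.88 in WT 3 months replicate 1, 5XFAD 12 months replicate 3 and 5XFAD 6 months replicate 2, 0.09 in WT 12 months replicate 3 and between -0.34 and 0.10 in the other 11. Isl1, a transcription factor gene of cholinergic and direct pathway neurons, was at 1.91, 1.77, 2.05 and 0.115 CPM in those libraries, and its median over 15 was 0.0288 CPM. The 12 cortical excitatory neuron genes had a mean log2 level of 6.87 to 7.31 in all libraries and an r of -0.40 with the members' mean, with 6.87 in 5XFAD 12 months replicate 3 the lowest. The 10 cortical inhibitory neuron genes ran from 6.11 to 6.54 (r -0.10), and the 6 midbrain dopamine neuron genes, with En1 and Pitx3 at 0 in some libraries and the dopamine transporter gene Slc6a3 at a median of 0.0960 CPM, from 0.48 to 0.88 (r 0.15).

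Other lists moved beside the members in part of the libraries. The 10 myelin genes had a mean log2 level of 7.20 in WT 3 months replicate 1 against 6.31 in replicate 2, 7.53 in WT 12 months replicate 3 against 6.37 in replicate 2, 8.11 in 5XFAD 6 months replicate 2 against 7.47 and 7.54, and 8.50 in 5XFAD 12 months replicate 3 against 7.59 and 8.38. In each of these 4 groups the library with the most Drd2 thus had the most myelin RNA, and the r with the members' level was 0.71 for deviations from group means and 0.36 over all 15. The 10 choroid plexus genes were at 6.08 in 5XFAD 6 months replicate 2 and 3.24 in 5XFAD 6 months replicate 1, and at 1.01 or less in the rest, with r 0.12. The 7 thalamus genes covered a narrow range of mean log2 level, from 1.67 to 2.18, with an r of 0.61 over 15 libraries, 0.28 over 13 and 0.80 for deviations from group means. Of these, Shox2 was at 0 in every library and Gbx2 at 0.141 CPM or less. The part of myelin, choroid plexus, thalamus or cholinergic neuron RNA in the members' levels was not tested, and the labels used here give no detail of the dissection.

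None of the 9 genes passed the test in any comparison of genotype or age. In edgeR's quasi-likelihood test on all 15 libraries, 0 of 9 members had a Benjamini-Hochberg adjusted p under 0.05 for 5XFAD against WT at 3 months, where 0.00464% of all tested genes did, at 6 months (1.94%), at 12 months (3.06%) or as a mean over ages (4.04%). The same held for 12 against 3 months within WT (0.00464%) and within 5XFAD (1.89%) and for the change of the genotype difference between ages, which called no gene at all. DESeq2 also called 0 of the 8 members to which it gave an adjusted p, all but Adora2a. At an unadjusted p under 0.05 there was 1 member at 3 months in edgeR (Ppp1r1b), where 497 of 21555 genes were, and 6 in DESeq2, where 627 were, and none at 6 or 12 months in either. For the change of the genotype difference, edgeR had 2 such members from 3 to 6 months (Adora2a and Ppp1r1b), among 1161 genes, and 2 from 3 to 12 months (Ppp1r1b and Pde10a), among 2240.

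The log2 fold changes of the members changed direction with the age at which a high library fell. At 3 months all 9 were lower in 5XFAD, from -4.16 ± 2.15 (SE) for Drd2 and -3.97 ± 1.83 for Adora2a to -0.89 ± 0.73 for Tac1, with a median of -1.80 against 0.00 for all genes, and every adjusted p was 1. Without WT 3 months replicate 1, Drd2 stood at 0.16 and the 9 ranged from -0.41 (Penk) to 0.36 (Pde10a). At 12 months all 9 were higher in 5XFAD, from 0.11 ± 0.88 for Penk to 1.43 ± 1.82 for Drd2 (adjusted p 0.733). Without 5XFAD 12 months replicate 3 the 12-month value of Drd2 was -2.16, and without WT 12 months replicate 3 it was 3.93. At 6 months 8 of 9 were higher, with Adora2a at 1.63 ± 1.38 (adjusted p 0.683), Drd2 at 1.24 ± 1.60 (adjusted p 0.807) and Tac1 at -0.07, and without 5XFAD 6 months replicate 2 Drd2 was at -0.03. The 4 libraries thus set the size and sign of the Drd2 difference at each age. All 26 tested genes of the other striatal list were lower in 5XFAD at 3 months, with a median of -1.16 and none called. That comparison holds the same WT 3 months replicate 1, so it is no separate support. Six3, for example, was at 0.0859 CPM there, 0.0978 CPM in 5XFAD 6 months replicate 2 and 0.0306 CPM or less elsewhere. At 6 and at 12 months 19 of the 26 were higher and 7 lower, with medians of 0.13 and 0.16.

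**Figure D4:**
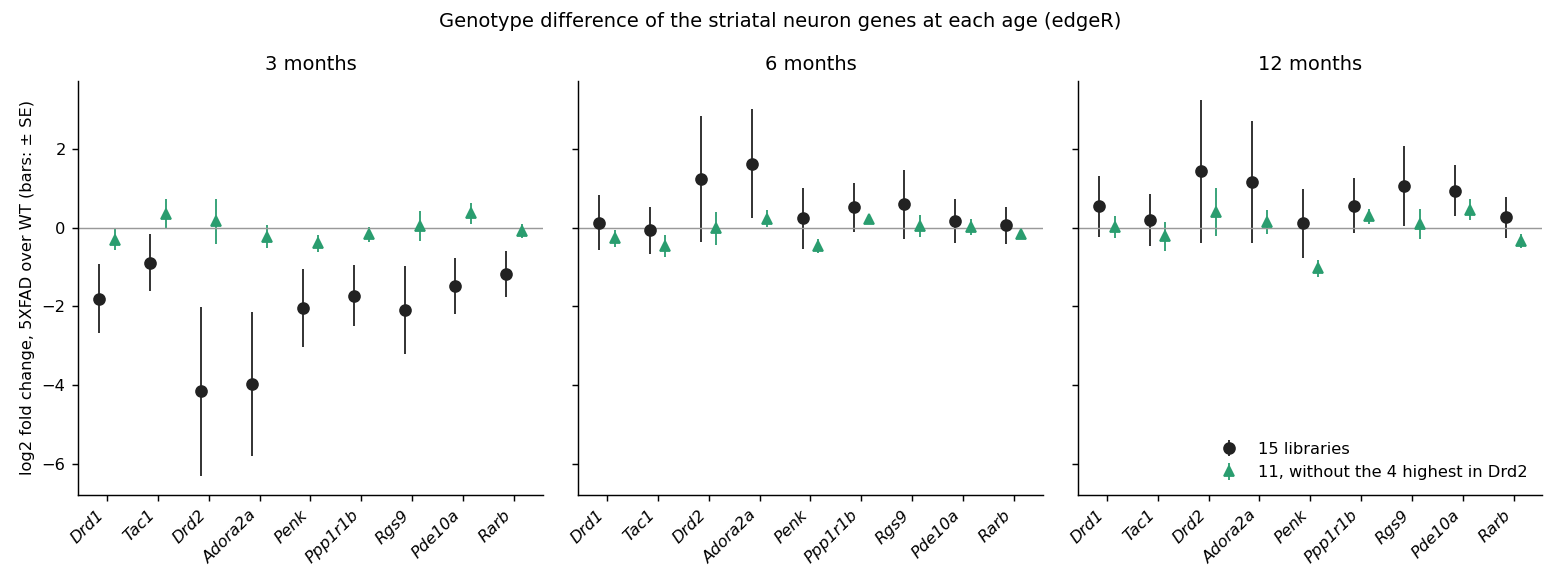
log2 fold change of each member, 5XFAD over WT, at 3, 6 and 12 months from edgeR, with bars of 1 SE, for all 15 libraries (circles) and for the 11 without the 4 highest in Drd2 (triangles). The circles of Drd2 run from -4.16 at 3 months to 1.43 at 12 months, whereas its triangles lie between -0.02 and 0.40; Penk at 12 months is the triangle furthest from 0, at -1.04.

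Once the high libraries were set aside, Penk was the only member whose levels did not overlap between genotypes. Over the 11 libraries left without the 4 highest in Drd2, it was at 38.6 CPM in WT and 30.9 and 27.1 CPM in 5XFAD at 3 months, at 32.7, 40.6 and 36.2 CPM in WT and 27.0 and 25.4 CPM in 5XFAD at 6 months, and at 43.3 CPM in WT and 25.7 and 16.4 CPM in 5XFAD at 12 months. All 5 WT libraries (32.7 to 43.3 CPM, median 38.6) lay above all 6 5XFAD libraries (16.4 to 30.9 CPM, median 26.4). Sex was not balanced between them. The male WT library was at 32.7 CPM and the male 5XFAD libraries at 30.9, 27.0 and 25.7 CPM. The female libraries ran from 36.2 to 43.3 CPM in WT and from 16.4 to 27.1 CPM in 5XFAD. Such a gap with 5XFAD below was found in 1 of 9 members and in 0.283% of all 21555 tested genes. The choice of libraries and of Penk came after these values had been seen, so the gap is a description.

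The test of that difference depended on which libraries were in. Without WT 3 months replicate 1, 5XFAD 12 months replicate 3 and 5XFAD 6 months replicates 1 and 2, the libraries rich in striatal or choroid plexus genes, edgeR gave Penk a log2 fold change of -1.29 ± 0.22 at 12 months (adjusted p 0.0175, where 2.46% of genes were called and 0.27% lower) and -0.74 ± 0.14 as a mean over ages (adjusted p 0.0244, 3.21% called and 0.174% lower). Without the 4 libraries highest in Drd2 it was -1.04 ± 0.22 at 12 months (adjusted p 0.155, 0.0183% of genes called) and -0.64 ± 0.12 over ages (adjusted p 0.0507, 0.855% called). With log2 Drd2 as a term in the fit of all 15 libraries it was -0.63 ± 0.33 at 12 months (adjusted p 0.33, 3.76% called) and -0.44 ± 0.19 over ages (adjusted p 0.20, 6.5% called). The fit of all 15 without that term gave 0.11 ± 0.88 (adjusted p 0.966) and -0.56 ± 0.50 (adjusted p 0.596). The 12-month call set WT libraries at 43.3 and 58.8 CPM, the latter from WT 12 months replicate 3 with its raised Drd2, against 5XFAD libraries at 25.7 and 16.4 CPM. Those WT libraries were female, whereas the 5XFAD library at 25.7 CPM was male, and sex was not a term in that fit. In both reduced fits 2 groups kept 1 library, which is assumed to vary like the others.

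Set against its line on Drd2, Penk was above the line in all 7 WT libraries, by 0.0987 to 12.8 CPM, and below it in 7 of 8 5XFAD libraries, by 0.742 to 15.5 CPM. The exception was 5XFAD 6 months replicate 2, 18.8 CPM above the line, and 5XFAD 6 months replicate 1, the other library with raised choroid plexus RNA, was 4.24 CPM below it. That split depended on the 2 highest libraries. Against a line over the other 13, an alternative chosen after seeing the data, Penk was above in 4 of 6 WT libraries and below in 5 of 7 5XFAD libraries, with WT 12 months replicate 3 now 4.69 CPM below the line. The other 8 members overlapped between genotypes in the 11 libraries. Drd1, for example, ran from 7.88 to 12.7 CPM over the WT libraries and from 7.31 to 11.2 CPM over the 5XFAD libraries. Tac1 ran from 9.40 to 13.5 CPM and from 6.15 to 13.7 CPM. Rarb also leaned lower in 5XFAD, with 7.89 to 9.39 CPM in WT (median 8.51) and 6.74 to 8.39 CPM in 5XFAD (median 7.78).

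**Figure D5:**
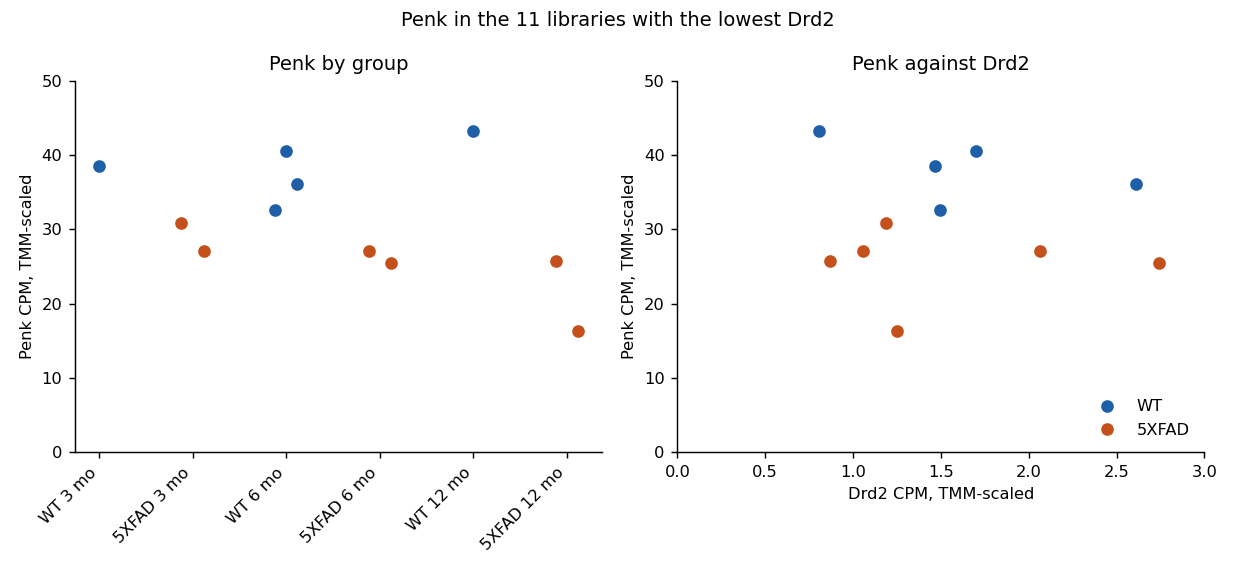
Penk in the 11 libraries without the 4 highest in Drd2, in CPM by group on the left and against Drd2 CPM on the right, with blue for WT and orange for 5XFAD. All 5 WT points lie between 32.7 and 43.3 CPM and all 6 5XFAD points between 16.4 and 30.9 CPM, over the same range of Drd2.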

How the data were processed

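RNA of mouse cortex was sequenced in 15 libraries of a stranded, rRNA-depleted total RNA kit, as paired reads of 100 bases, per the labels' protocols; the molecule label reads polyA RNA, a difference that could not be settled here. The authors deposited raw counts per Ensembl gene in 1 table, with CASAVA, STAR, BWA and build mm9 per the submitters' processing notes; versions, the counting program, its annotation and its use of strand are not given in the sources used here, so overlapping and antisense genes may share counts. Of 37991 gene IDs, 32919 matched a symbol.

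Samples were grouped by the genotype and age labels. Genes were filtered with edgeR 4.0.16 (R 4.3.3; filterByExpr, a minimum count of 10 and a total of 15), scaled by TMM and tested with its robust quasi-likelihood test in 1 model with a coefficient per group, adjusted by Benjamini-Hochberg over all tested genes, and called at an adjusted p under 0.05. SEs of log2 fold changes come from the fit. Likeness is Pearson's r of log2(CPM + 0.5). The members, gene lists and libraries set aside were chosen with earlier results of these data known. Named genes were the members, the 20 others most like them and the 10 least, and the highest and lowest of each list. The lists were other striatal, signalling partner, cholinergic, cortical excitatory and inhibitory, myelin, choroid plexus, thalamus, hippocampus and midbrain dopamine genes; thalamus and hippocampus genes had an r of 0.61 and 0.32 with the members' mean level. Gene lengths come from GENCODE M21 and promoters from RefSeq. The script was tested on simulated data: at 3 months, over 20890 genes, it called 63% of genes changed by 2-fold and 100% of those changed by 4-fold. The simulation gave every gene the same spread and held no library that stood apart. Its shares therefore do not apply to the members, for which WT 3 months replicate 1 stood far above replicate 2.

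Same-numbered libraries of both genotypes deviated together at 6 months (r of deviations over 10197 genes 0.675, 0.271 and 0.267) and at 3 months (0.383). At 12 months they had -0.063 and 0.138. The numbers may thus pair libraries at 6 months, where every same-numbered pair was over 0.1. WT replicate 3 with 5XFAD replicate 2 was also over 0.1 there, at 0.196. Replicate 1 was male and replicates 2 and 3 were female, so the pair at 0.675 was also the pair of males. At 3 months, with 2 libraries per group, both same-numbered values are equal by construction. Alternatives were library totals alone, DESeq2 1.42.0, 2 other filters, the replicate number or sex as a term, only the groups compared, each library left out, and sets of libraries left out. Gpr52, Pde2a, Slc18a3 and Lhx8 were not analysed here, and 1 of the genes most like the members is not reported here.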

Additional observations from a re-analysis of the deposited data

How the results depend on the processing

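The count of called members was 0 in every comparison with library totals alone, DESeq2, either other filter, sex as a term, the groups of a comparison alone, and each library left out in turn (0 to 0 in all). With the replicate block it was also 0 in every comparison, and the pairing changed no other call (Drd2 at 3 months -4.38, at 6 months 1.57, at 12 months 1.32). Without the 4 libraries rich in striatal or choroid plexus genes, 1 member, Penk, was called at 12 months (-1.29, from 0.11) and 1, again Penk, over ages (-0.74). The cause was not tested, but both reduced fits hold fewer samples. Of the members' log2 fold changes under the alternatives, 829 kept direction and call, and 92 that were called in neither fit changed sign. Members among the 100 genes most alike were 3 without the 4 libraries highest in Drd2, a set chosen after seeing the data, as was Drd2 as a term. The Adora2a intercept was 0.0261 CPM over 13 libraries, and the WT libraries above the Penk line were 4 of 6 there, from 7 of 7. DESeq2 gave Adora2a no adjusted p. Each member had at least 91 counts in every library.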

Other observations

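The genes nearest to the members changed once WT 3 months replicate 1 and 5XFAD 12 months replicate 3 were set aside. Of the 20 genes outside the group that were closest over 15 libraries, 10 were also among the 20 closest over 13. Several that entered were not striatal genes and were highest in 5XFAD 6 months replicate 2, the library with the most choroid plexus RNA. The axonemal dynein genes Dnah9 and Dnah10, which build motile cilia, had r values of 0.784 and 0.763 over 13 libraries against 0.375 and 0.437 over 15. Dnah9 was at 11.2 CPM in that library against a median of 4.31 CPM, and Dnah10 at 5.22 against 2.63 CPM. Nr2f2, a nuclear receptor gene, was at 25.8 CPM there against a median of 9.36 CPM, and its r was 0.762 over 13 libraries and -0.046 over 11. Sh3rf2, Cd4, Syndig1l, Lrrc10b and Gpr6 led both orders, with r values of 0.943, 0.903, 0.885, 0.874 and 0.854 over 13 libraries. The part of choroid plexus RNA in the 13-library order was not tested.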
